A study of Mus musculus with 8 samples.

Results

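The comparison described here is that of cumulus cells from mice lacking the prostaglandin E2 receptor EP2 (EP2KO) with wild-type (WT) cumulus cells, 3 h after the ovulatory hormone was given. Its members are the 2 arrays labelled with that time, 1 of each genotype, out of 8 arrays in the series, and it was read over all 12422 probe sets that are not Affymetrix controls. Both genotypes are on the C57Bl/6 strain, and EP2KO animals are Ptger2(-/-), a loss in the whole animal. Females of 3 to 4 weeks were primed with 5 IU of PMSG, an FSH-like hormone that makes follicles grow. At 48 h after priming they received 5 IU of hCG, which stands in for the LH surge. Times are counted from hCG, and the 0 h animals had none. Each genotype has 1 array at 0, 3, 9 and 14 h. At 0, 3 and 9 h follicles were punctured and the cumulus cells were stripped from the oocyte with a glass capillary, whereas at 14 h ovulated complexes came from the oviduct and were treated with hyaluronidase. How many animals each array represents is a number not given in the sources used here. With 1 array per genotype at 3 h, an effect of genotype and a peculiarity of either array cannot be told apart, and no test of the 3 h difference alone exists.

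Cumulus cells are the somatic cells that surround the oocyte. After the LH surge they synthesise hyaluronan, stabilise it into an elastic matrix and expand, and prostaglandin E2 made by the inducible cyclooxygenase Ptgs2 takes part in that step. EP2, the product of Ptger2, is a G protein-coupled receptor that raises cyclic AMP (cAMP). cAMP activates protein kinase A, which phosphorylates CREB, and CREB switches on genes through cAMP response elements. Ptger4 encodes EP4, a second prostaglandin E2 receptor that also couples to cAMP. The question the comparison bears on is how far the early response to hCG runs in cumulus cells without EP2.

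All values below are log2 signals from the deposited table, and a difference is EP2KO minus WT at the same time, so that 1 unit is 2-fold and a negative value means less signal in EP2KO. The number of arrays limits the precision. Array medians lay between 7.79 and 7.89. Signals were most spread out at 3 h, with a standard deviation over probe sets of 1.993 (WT) and 1.959 (EP2KO) against 1.772 to 1.908 on the other 6 arrays. The 3′ minus 5′ difference of Gapdh, a measure of how short the labelled RNA is, was lowest on the 3 h arrays, at 0.80 (WT) and 0.96 (EP2KO), and ran from 1.22 to 2.87 on the others. For Actb it was 0.73 and 0.76 at 3 h, with the lowest value, 0.69, in EP2KO at 0 h. All 11 measured cumulus and granulosa markers lay above the array median on both 3 h arrays. Inha, a subunit of inhibin, read 13.82 in WT and 13.81 in EP2KO there.

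Ptger2 itself was the first check of the labels. Its signal in WT was 4.95, 5.97, 5.37 and 5.33 at 0, 3, 9 and 14 h, and in EP2KO 4.57, 4.24, 4.69 and 4.51. Every EP2KO value lay below every WT value, although all 8 were low for these arrays. The gap was widest at 3 h, where WT was at its highest, with a difference of -1.73 against -0.38, -0.68 and -0.82 at 0, 9 and 14 h. The labels do not place this probe set relative to the deleted part of the gene.

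The 3 h comparison was strongly one-sided. Of the 12422 probe sets, 50 (0.403%) were at least 2-fold lower in EP2KO and 8 (0.0644%) at least 2-fold higher. At 1.5-fold the counts were 235 lower (1.89%) and 56 higher (0.451%). At 0 h the 1.5-fold counts were 38 lower (0.306%) and 89 higher (0.716%), at 9 h 62 (0.499%) and 96 (0.773%), and at 14 h 164 (1.32%) and 83 (0.668%). None of these times had as many 1.5-fold deficits as 3 h. At 0 h the 2-fold counts were 2 lower (0.0161%) and 3 higher (0.0242%), at 9 h 11 (0.0886%) and 5 (0.0403%), and at 14 h 6 (0.0483%) and 21 (0.169%). Thus 3 h held more 2-fold differences than any other time, and most of them were deficits in EP2KO. Over all probe sets the median difference stayed between -0.02 and 0.02 at the 4 times, and the differences had a standard deviation of 0.241 at 3 h and 0.2 to 0.226 otherwise.

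The 50 lower probe sets, with 42 carrying a single symbol for 37 genes, were largely ones with more signal at 3 h than at 0 h. Averaged over both genotypes, 38 of the 50 stood at least 2-fold higher at 3 h than at 0 h, none stood 2-fold lower, and 12 changed by less. Over all probe sets, 570 of 12422 stood at least 2-fold higher by the same measure. The 3 h arrays that chose the 50 also enter this change, which rests on 1 array per genotype and time. The median difference of the 50 lower probe sets, chosen to be large at 3 h, was -0.035 at 0 h, -0.17 at 9 h and 0.00 at 14 h. At 9 h 5 of them were still at least 2-fold lower, among them Klf4, Phlda1 and the alpha globin Hba-a1, and at 14 h none was. Over all probe sets, with no selection, the 3 h difference was the lowest of the 4 times in 23.9% and the highest in 30.2%.

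To see whether the response as a whole was smaller, probe sets were grouped by their change from 0 to 3 h averaged over WT and EP2KO. This choice favours neither genotype only where the arrays of both have like error, which 1 array per genotype and time cannot show. It also uses the 3 h arrays that are compared. In the 570 induced probe sets (a mean change of at least 2-fold upward), EP2KO was lower at 3 h in 514 (90.2%), against 44.5% of all probe sets. At 0 h it was lower in 97 (17.0%), at 9 h in 152 (26.7%) and at 14 h in 282 (49.5%). Their median difference was 0.22 at 0 h, -0.29 at 3 h, 0.20 at 9 h and 0.00 at 14 h. The 0 h and 3 h values thus lay on opposite sides of zero, and both enter the change of each genotype. The median change from 0 to 3 h was 1.59 in WT and 1.06 in EP2KO, and the EP2KO change was the smaller in 544 and the larger in 24. In this set 123 probe sets were at least 1.5-fold lower at 3 h and 1 was at least 1.5-fold higher, Ccn2.

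The gap was wider where the induction was greater. In the 72 probe sets with a mean change of at least 4-fold, 71 (98.6%) were lower in EP2KO at 3 h, 40 by at least 1.5-fold and 18 by at least 2-fold. Their median difference was 0.11, -0.605, -0.025 and -0.045 at 0, 3, 9 and 14 h, and their median change by 3 h was 2.985 in WT and 2.035 in EP2KO. Among the 121 repressed probe sets (a mean change of at least 2-fold downward) the picture was turned round, with 96 higher in EP2KO at 3 h and a median difference of 0.19, against -0.15, -0.14 and -0.11 at 0, 9 and 14 h. For the 9972 probe sets that changed under 1.5-fold the median at 3 h was 0.04. When the responding probe sets were instead chosen on the mean change from 0 to 9 h, a choice that uses no 3 h array, EP2KO was lower at 3 h in 322 of 394 (81.7%), with a median of -0.27. For the 162 chosen as lower at 9 h the median was 0.145, 0.09, 0.235 and -0.07 at 0, 3, 9 and 14 h. In this choice the medians at 0 and 3 h had the same sign, unlike those of the 121 repressed probe sets.

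**Figure D1:**
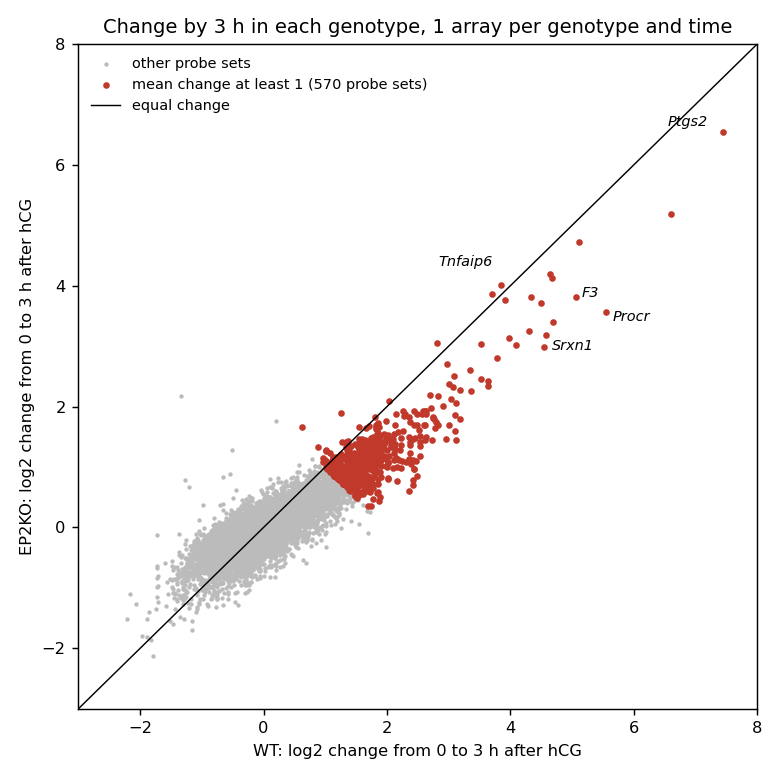
Log2 change from 0 to 3 h after hCG in WT (horizontal) and EP2KO (vertical), 1 point per probe set and 1 array per genotype and time; red points are the 570 induced probe sets and the line marks equal change. Most red points lie under the line, with the EP2KO change smaller in 544 of the 570, while Tnfaip6 lies slightly above it.

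**Figure D2:**
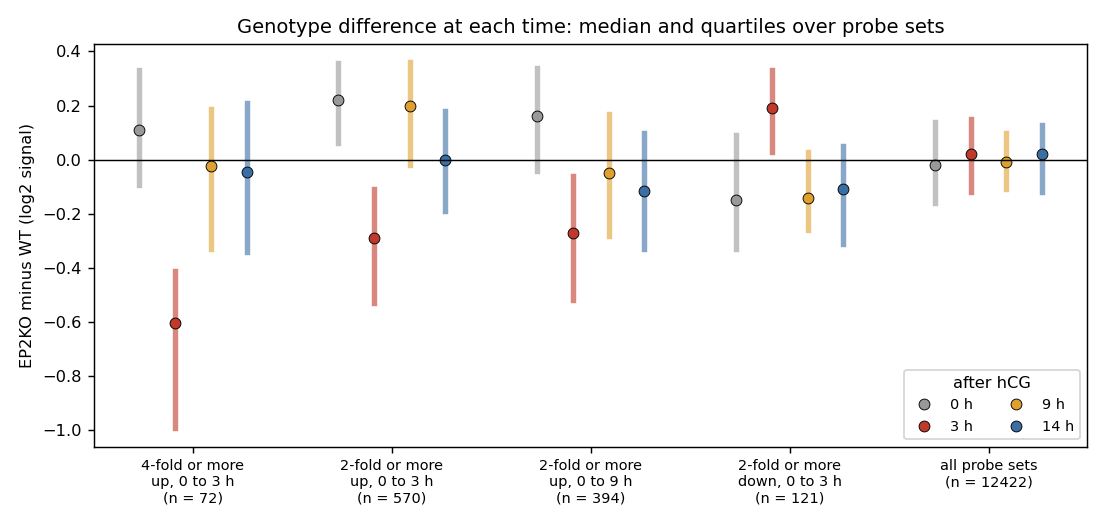
Median (point) and quartiles (bar) over probe sets of the EP2KO minus WT difference in log2 signal, at 0, 3, 9 and 14 h, for sets chosen on the mean change of both genotypes. At 3 h the median is -0.605 in the 72 probe sets with a 4-fold induction, -0.29 in the 570 with a 2-fold one and 0.19 in the 121 repressed ones.

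The 20 single-symbol probe sets with the largest mean induction were then read gene by gene. In 19 the EP2KO signal was lower at 3 h, Ier2 being the exception at 0.02, and 14 were lower by at least 1.5-fold. Of the 72 probe sets induced at least 4-fold, 98.6% were lower and 40 were at least 1.5-fold lower, so 19 of 20 is near that share. The median difference over the 20 was -0.135 at 0 h, -0.785 at 3 h, -0.215 at 9 h and -0.045 at 14 h. Each of the 20 still changed several-fold upward in EP2KO. That change is part of the mean that chose them, so a gene without induction in EP2KO could hardly enter this group. Ptgs2 read 4.83, 12.27, 10.84 and 10.04 in WT, against 5.03, 11.57, 9.92 and 10.09 in EP2KO, so that its 3 h deficit of 0.70 remained at 9 h and was gone at 14 h. Procr, the endothelial protein C receptor, read 6.06, 11.61, 10.42 and 8.86 in WT, against 6.49, 10.06, 10.69 and 8.41 in EP2KO. EP2KO cells were below WT only at 3 and 14 h, and at 3 h they stood 2.93-fold lower. F3 (tissue factor, which starts coagulation) was lower by a difference of -1.17 at 3 h and higher by 0.47 at 14 h. Bex1 stood at -1.12, Mgp (matrix Gla protein, also counted here among theca and stroma markers) at -0.94 and the aldo-keto reductase Akr1b8 at -0.95, each within 0.24 of zero at 0, 9 and 14 h. At the other end, Nupr1, a stress-induced nuclear protein, read 12.15 in WT and 12.08 in EP2KO at 3 h, a difference whose sign depends on the scaling.

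The 15 genes with the lowest differences at 3 h, among those above the array median on at least 1 of the 3 h arrays, lay between -1.85 and -1.27. Their 3 h values chose them and are a description. Below that signal level, Ptger2 (-1.73) and Ifi202b (-1.71) also lay in this range. Their median difference was -0.25 at 0 h, -0.12 at 9 h and -0.05 at 14 h, and none of the 15 was 2-fold lower at another time. A mean induction of at least 2-fold was found in 12 of them. The lowest was Srxn1, sulfiredoxin, which repairs oxidised peroxiredoxins. It read 7.01, 11.58, 8.24 and 7.55 in WT, against 6.55, 9.73, 7.90 and 7.74 in EP2KO, 3.61-fold lower at 3 h. WT thus went through a sharp peak at 3 h that EP2KO reached only in part. A second Srxn1 probe set differed in sign at 3 h, at 0.24, and read 8.35, 7.32, 8.11 and 7.97 in WT, with no peak at 3 h.

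Crem was next by this rule, the gene of a cAMP-responsive factor whose inducible form, ICER, represses cAMP response elements. It read 6.55, 11.24, 7.93 and 7.40 in WT, against 6.20, 9.60, 7.16 and 7.02 in EP2KO, and a second probe set differed by -1.42 at 3 h. EP2KO was the lower at all 4 times for the first probe set, most so at 3 h. Ptger4, the other cAMP-coupled receptor for prostaglandin E2, read 6.36, 8.82, 6.59 and 6.48 in WT, against 5.91, 7.39, 6.78 and 6.81 in EP2KO. Its brief peak at 3 h was thus 2.69-fold lower without EP2, and at 9 and 14 h EP2KO was the higher. Runx1, a transcription factor induced before ovulation, read 9.15, 10, 9.30 and 10.22 in WT, against 8.75, 8.68, 9.18 and 10.01 in EP2KO. The step from 0 to 3 h was 0.85 in WT and -0.07 in EP2KO, and the genotypes lay within 0.21 of each other by 9 and 14 h.

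The remaining genes of this group have varied roles. Ell2, an elongation factor of RNA polymerase II, stood at -1.56, and its other probe sets at -1.29 and -0.31. Sowahc stood at -1.45, reading 6.34, 8.04, 6.75 and 6.46 in WT, against 6.23, 6.59, 6.66 and 6.41 in EP2KO, and at the other times the genotypes were within 0.11. Rgs10, which speeds the shut-off of G proteins, stood at -1.34, with further probe sets at -1.03 and 0.07. Adarb1, an enzyme that edits adenosine in RNA, stood at -1.34, and a second probe set at -0.49. Zfp703 (-1.31), the neuropeptide Nmu (-1.29), the Eph receptor ligand Efnb2 (-1.28), the chemokine Cx3cl1 (-1.28), the decarboxylase Ddc (-1.27) and Amotl2 (-1.27), a regulator of the YAP pathway, made up the rest. A second Cx3cl1 probe set stood at -0.03. Efnb2 was the one of these 6 that also stayed below WT at 9 h (-0.87) and 14 h (-0.57). All 15 kept a 2-fold deficit at 3 h under each of the 3 rescalings of the arrays that were tried.

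**Figure D3:**
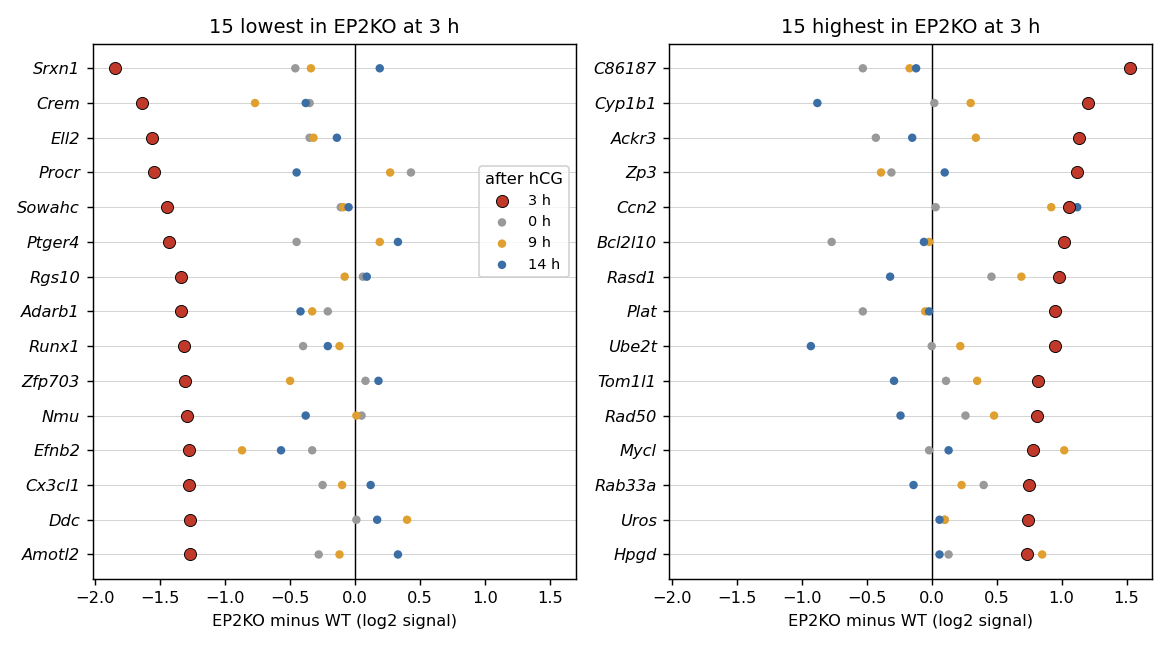
EP2KO minus WT difference in log2 signal at 0, 3, 9 and 14 h for the 15 genes with the lowest (left) and the 15 with the highest (right) value at 3 h among those above the array median on a 3 h array, with 1 array per genotype and time. On the left the 3 h points run from -1.85 to -1.27 and stand apart from the other times; on the right Ccn2, Mycl and Hpgd have a higher value at another time.

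Because EP2 signals through cAMP, the promoters of the lowered genes were read for the cAMP response element. Of 106 genes that were induced and at least 1.5-fold lower in EP2KO at 3 h, 85 have a promoter in the RefSeq table for GRCm38.p6, searched over the 250 bases before the start. The full palindromic element TGACGTCA was present in 4 (4.71%), its core TGACG on either strand in 29 (34.1%), and the antioxidant response element core TGACNNNGC, the site of Nfe2l2, on either strand in 15 (17.6%). The full element contains the core on both strands. For the other induced genes, 311 with a promoter, the shares were 3.86%, 40.2% and 16.1%. For all 6576 genes of the array with a promoter they were 2.69%, 28.3% and 14.0%, and for the whole table of 32851 promoters they were 1.55%, 17.8% and 10.2%. No test of these shares was made, and they differ by a few genes. Of 23 genes in the list of known cAMP-induced genes with a promoter, 16 (69.6%) held TGACG. The 4 lowered genes with the full element are shown because they let the sequence be read beside its value. They are Chgb, a secretory granule protein (-0.86 at 3 h, element at -72 to -65 from the start), Ell2 (-1.56, at -198 to -191), Errfi1, an inhibitor of the EGF receptor (-0.64, at -51 to -44), and the kinase Plk2 (-0.98, at -62 to -55). The sequences run 5′ to 3′ on the plus strand, which is the strand of each gene, with TGACGTCA in capitals. They cover chr2:132781530-132781617, chr13:75707246-75707333, chr4:150854979-150855066 and chr13:110394942-110395029, in that order.
Chgb: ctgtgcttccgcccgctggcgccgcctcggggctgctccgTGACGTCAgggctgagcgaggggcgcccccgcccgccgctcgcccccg
Ell2: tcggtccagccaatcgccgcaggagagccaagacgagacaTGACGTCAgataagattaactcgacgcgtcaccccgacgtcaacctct
Errfi1: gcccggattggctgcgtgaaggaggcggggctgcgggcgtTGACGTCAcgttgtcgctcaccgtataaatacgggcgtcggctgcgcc
Plk2: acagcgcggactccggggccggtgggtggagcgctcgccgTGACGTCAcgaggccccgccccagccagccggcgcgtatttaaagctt
A match is a run of letters and not a measured binding site.

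Plk2, shown above, read 8.95, 11.72, 9.11 and 8.96 in WT, against 8.95, 10.74, 8.74 and 9.19 in EP2KO. Both genotypes started level, and EP2KO reached a lower peak. Chgb read 6.80, 8.35, 8.01 and 7.46 in WT, against 6.93, 7.49, 7.86 and 7.50 in EP2KO, and outside 3 h its genotypes were within 0.15 of each other. Errfi1 was lower in EP2KO at 3 h (-0.64) and at 9 h (-0.80), and higher at 14 h (0.34).

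Gene lists chosen for this tissue were then read at 3 h, with each gene represented by its probe set of highest mean. Among 30 measured cAMP-induced genes, 24 were lower in EP2KO and 6 higher, with a median of -0.42 against 0.02 over all probe sets and -0.02, -0.12 and -0.03 for the list at 0, 9 and 14 h. Of the 30, 10 were at least 1.5-fold lower, where 1.89% of all probe sets were, and 1 was at least 1.5-fold higher (0.451% of all). Of the 13 that were induced at least 2-fold, 12 were lower, a share near the 90.2% of all induced probe sets. The median of the 13 was -0.60, against -0.29 over all induced probe sets and -0.605 over the 72 induced at least 4-fold. Of the 13, 7 were at least 1.5-fold lower, beside 123 of all 570 induced and 40 of those 72. The sizes of induction were not matched. Besides Crem, Star and Mrap, the 12 included Cited2, a partner of the coactivators CBP and p300. Cited2 read 8.70, 11.70, 11.06 and 12.73 in WT, against 9.41, 11.10, 11.12 and 12.45 in EP2KO. Id2, an inhibitor of helix-loop-helix factors, read 9.57, 11.27, 11.30 and 12.46 in WT, against 10.33, 10.24, 10.76 and 11.98 in EP2KO. WT Id2 was thus higher at 3 h than at 0 h, while in EP2KO a higher value than at 0 h was seen from 9 h on. Not every target was held back: Nr4a1, an orphan nuclear receptor, stood at -0.19, Fos at 0.22 and Id1 at 0.21, and Rasd1, a Ras-like protein, at 0.98. Nr4a1 was lower at 9 h (-1.25). The genes of the cAMP machinery itself (cyclases, kinase subunits, phosphodiesterases and G proteins) showed no such lean, with 16 of 33 lower, a median of 0.01 and none 1.5-fold apart. Of these 33, however, 2 were induced at least 2-fold, and those 2 were lower.

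Among 20 genes of prostaglandin synthesis, receptors and breakdown the median was 0.00, and the differences sat in a few members. All 4 that were induced at least 2-fold were lower, a share near the 90.2% of all induced probe sets. They were Ptger4 (-1.43), Ptgs2 (-0.70), the prostaglandin E synthase Ptges (-0.61) and the phospholipase Pla2g4a (-0.51), which frees arachidonic acid. Ptges read 9.75, 11.41, 9.08 and 8.69 in WT, against 10.09, 10.80, 9.65 and 8.29 in EP2KO. EP2KO Ptges was below WT at 3 h and above it at 0 and 9 h. Hpgd, the dehydrogenase that inactivates prostaglandins, ran the other way. It read 9.85, 8.83, 7.37 and 6.87 in WT, against 9.98, 9.56, 8.22 and 6.93 in EP2KO. Hpgd was thus higher in EP2KO by 0.73 at 3 h and 0.85 at 9 h, and by 0.06 at 14 h. Ptger1, Ptgfr and Ptgir, receptors for prostaglandins E2, F2α and I2, stood at 0.15, 0.00 and 0.16. Ptger3, a further prostaglandin E2 receptor, stood at -0.46 on a low signal, 4.86 in WT and 4.40 in EP2KO.

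In the list of 22 genes of the hyaluronan matrix and expansion, the median was -0.13 at 3 h, and -0.07 and -0.095 at 0 and 9 h. At 3 h 4 were at least 1.5-fold lower (1.89% of all probe sets) and none 1.5-fold higher. Has2, the hyaluronan synthase, read 7.39, 11.73, 8.64 and 7.39 in WT, against 7.21, 11.03, 8.64 and 7.45 in EP2KO. The genotypes were within 0.06 of each other at 9 and 14 h, and the difference was -0.70 at 3 h. Ptx3, a pentraxin that links hyaluronan chains, stood at -0.75, Ugdh, which makes a sugar precursor of hyaluronan, at -0.87, Has1 at -0.72 and the proteoglycan Vcan at -0.34. Tnfaip6, which transfers heavy chains onto hyaluronan, read 5.29, 9.13, 8.89 and 9.11 in WT, against 4.86, 8.88, 8.37 and 8.48 in EP2KO. Its deficit was smallest at 3 h (-0.25) and larger at 0, 9 and 14 h (-0.43, -0.52 and -0.63), a course unlike that of Has2.

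EGF-like factors carry the LH signal from the follicle wall to the cumulus. Of 23 genes of EGF-like ligands and MAP kinase feedback, 7 were induced at least 2-fold, and all 7 were lower in EP2KO, 5 by at least 1.5-fold, with a median of -0.64 in the 7. Over all induced probe sets 90.2% were lower, so 7 of 7 is near that share. The median of the 23 was -0.09 at 3 h, and -0.07 and -0.11 at 0 and 9 h. Epiregulin (Ereg) read 6.16, 9.16, 8.19 and 7.13 in WT, against 5.84, 8.22, 6.93 and 7.34 in EP2KO. Its deficit was larger at 9 h (-1.26) than at 3 h (-0.94). Betacellulin (Btc) stood at -0.61, and the feedback genes Phlda1, Ier3, Errfi1 and Dusp6 at -1.08, -0.82, -0.64 and -0.55. The receptor Egfr stood at 0.10.

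**Figure D4:**
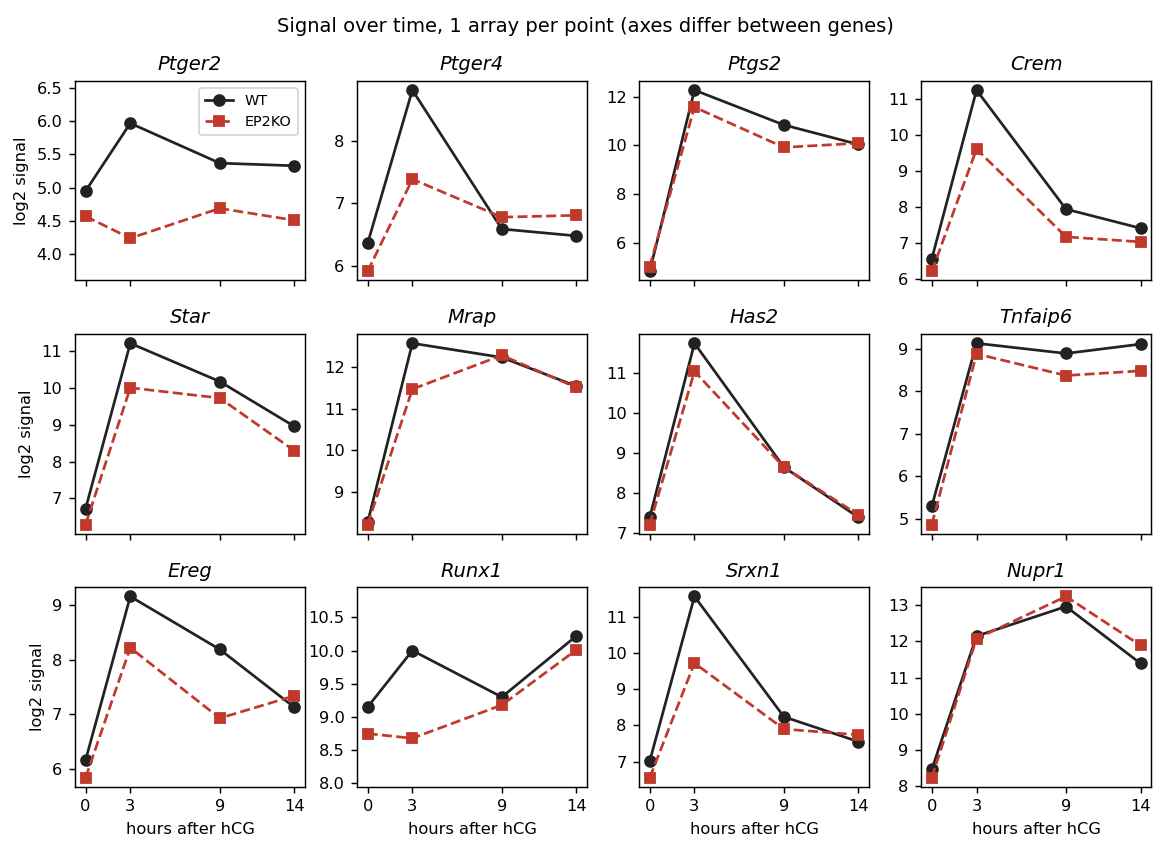
Log2 signal over time in WT (black, solid) and EP2KO (red, dashed) for 12 genes, 1 array per point, with its own vertical axis for each gene. Srxn1, Ptger2, Crem, Ptger4 and Runx1 show the widest gaps at 3 h and smaller ones later. The Tnfaip6 and Nupr1 gaps are smallest at 3 h.

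Transcription factors were read in 2 lists. Of 30 immediate early factors, 18 were lower and 12 higher, with a median of -0.20 against -0.12 at 0 h and -0.125 at 9 h. Of the 30, 9 were at least 1.5-fold lower (1.89% of all probe sets), and 8 of the 11 induced ones were lower (90.2% of all induced probe sets). The Krüppel-like factor Klf4 read 7.33, 10.45, 9.18 and 8.93 in WT, against 7.29, 9.35, 8.14 and 9.78 in EP2KO, lower at 3 and 9 h and higher at 14 h. The growth arrest gene Btg1 read 8.27, 11.00, 8.74 and 9.79 in WT, against 8.52, 9.97, 8.64 and 9.81 in EP2KO, furthest apart at 3 h. Junb stood at -0.71, Nr4a2 at -0.71 and the mRNA decay factor Zfp36l1 at -0.84. Egr1 (-0.27), Egr2 (-0.25) and Ier2 (0.02) were close, and their deficits at 0 h (-0.36, -0.47 and -0.23) were larger. In the list of 23 ovulatory factors, Runx1 was the one member past 1.5-fold, and the median was 0.05. Cebpb, needed for luteinisation, and Cebpd both stood at -0.53, whereas the progesterone receptor Pgr stood at 0.13 on a low signal and Pparg at 0.09.

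Among the steroid synthesis genes Star and Mrap had the lowest values. Star, which carries cholesterol into mitochondria, read 6.72, 11.22, 10.18 and 8.96 in WT, against 6.29, 10.01, 9.73 and 8.30 in EP2KO. In this probe set EP2KO was lower at all 4 times and most at 3 h (-1.21). A second Star probe set differed by -0.21, -0.34, -0.35 and 0.22 at 0, 3, 9 and 14 h. Mrap, an accessory protein of melanocortin receptors, read 8.27, 12.57, 12.23 and 11.54 in WT, against 8.22, 11.47, 12.28 and 11.51 in EP2KO. The Mrap genotypes were within 0.05 of each other except at 3 h. The lipoprotein receptor Scarb1 stood at -0.59 at 3 h. The enzymes Cyp11a1 (-0.28) and Hsd3b1 (-0.22), and the electron carrier Fdx1 (-0.26), were nearer to WT, and all 3 had been higher in EP2KO at 0 h (0.74, 0.72 and 0.38). Over the 16 genes of the list the median was -0.16 at 3 h and -0.14 at 14 h. The 4 induced ones were all lower, near the 90.2% of all induced probe sets.

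Antioxidant and metallothionein genes held several of the larger deficits. Of 31 measured, 6 were at least 1.5-fold lower, against 1.89% of all probe sets. All 8 that were induced at least 2-fold were lower, a share near the 90.2% of all induced probe sets. The median of the 8 was -0.845, against -0.29 over all induced probe sets and -0.605 over the 72 induced at least 4-fold. Besides Srxn1 and Akr1b8, the 6 at least 1.5-fold lower were the glutathione transferases Gsta2 (-1.14) and Gsta4 (-1.11), Nfe2l2, the transcription factor that drives many of them (-0.74), and Gclc, which starts glutathione synthesis (-0.61). Gsta4 read 8.08, 10.52, 9.82 and 6.85 in WT, against 8.45, 9.41, 9.41 and 6.64 in EP2KO. EP2KO Gsta4 began above WT and was below it from 3 h on. Gsta2 belongs to a family of near-identical genes, and its probe set may read its relatives. The metallothioneins Mt1 and Mt2 stood at -0.44 and -0.54, and Nqo1, another Nfe2l2 target, at 0.19.

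In 8 further lists the medians at 3 h lay between -0.12 and 0.15. They were 0.04 for cholesterol synthesis, 0.04 for granulosa identity and FSH response, 0.05 for chemokines, cytokines and receptors, 0.015 for coagulation, proteases and inhibitors, -0.12 for heat shock and chaperones, 0.04 for glycolysis, 0.12 for cell cycle and 0.15 for the interferon response. Single members still stood out. The CDK inhibitor Cdkn1a was lower in both of its probe sets, by -1.05 and -1.04, reading 11.16 in WT and 10.11 in EP2KO at 3 h in the first. The urokinase receptor Plaur stood at -0.63, and Timp1, an inhibitor of matrix metalloproteinases, at -0.55. Plat, tissue plasminogen activator, was higher by 0.95, reading 8.04, 7.39, 7.96 and 9.81 in WT, against 7.51, 8.34, 7.91 and 9.79 in EP2KO. WT Plat was lower at 3 h than at 0 h, and EP2KO Plat higher.

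**Figure D5:**
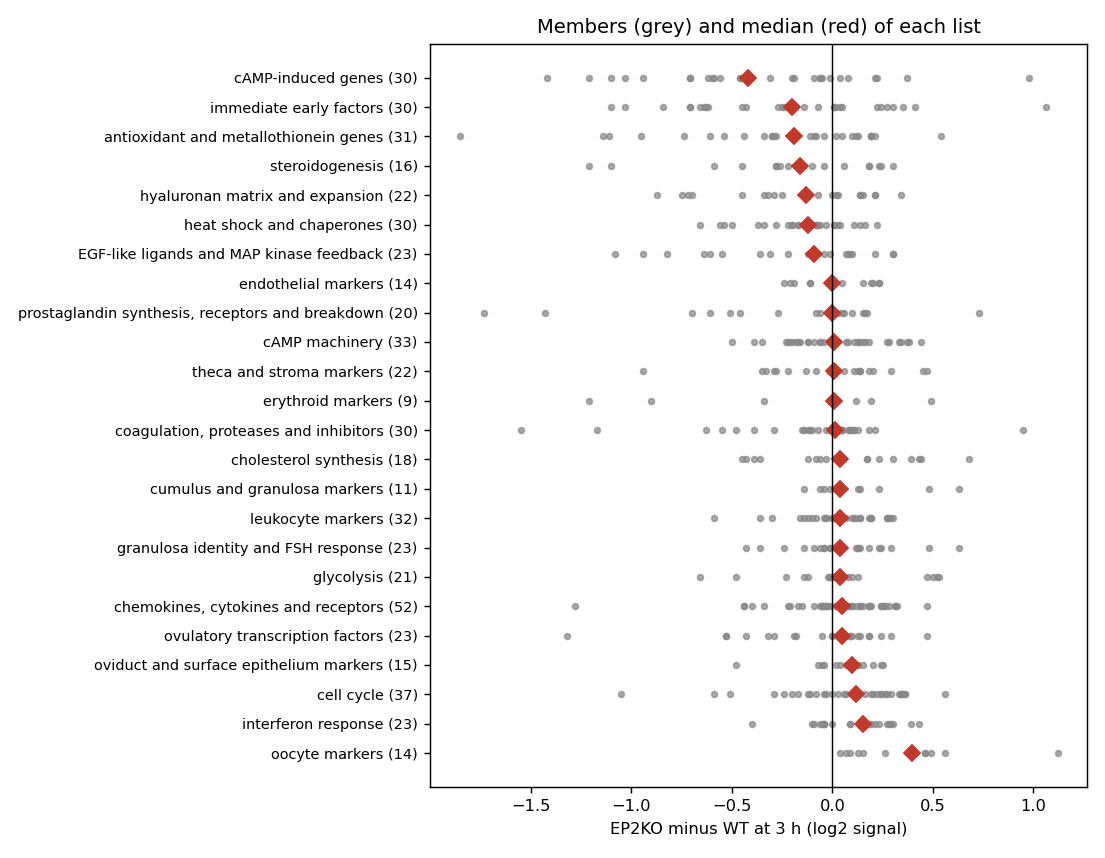
EP2KO minus WT difference in log2 signal at 3 h for the measured members (grey points) and the median (red diamond) of each of the 24 gene lists, with the number measured in brackets. The median is lowest for the cAMP-induced genes, at -0.42, and highest for the oocyte markers, at 0.395.

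The genes higher in EP2KO at 3 h were fewer. The 15 highest by the same rule ran from 0.73 to 1.53, with medians of 0.02 at 0 h, 0.30 at 9 h and -0.12 at 14 h. The highest single-symbol value was C86187, which read 7.77, 6.50, 6.09 and 6.18 in WT, against 7.24, 8.03, 5.92 and 6.06 in EP2KO. A probe set annotated Obox2;Obox1, a pair of oocyte homeobox genes, read 8.25, 6.91, 6.44 and 6.35 in WT, against 6.97, 9.15, 6.53 and 6.46 in EP2KO, and its 4.72-fold excess was the one difference past 4-fold in either direction. In both, EP2KO was the lower at 0 h and the higher at 3 h. Cyp1b1, a cytochrome P450, stood at 1.20, with a second, low probe set at 0.10, and the chemokine receptor Ackr3 at 1.13. Ccn2, connective tissue growth factor, read 7.63, 8.26, 6.18 and 7.03 in WT, against 7.66, 9.32, 7.10 and 8.15 in EP2KO. Ccn2 was alike at 0 h and higher in EP2KO at every time after hCG. The others were Zp3 (1.12), Bcl2l10 (1.02), Rasd1, Plat, Ube2t (0.95), Tom1l1 (0.82), Rad50 (0.81), Mycl (0.78), Rab33a (0.75), Uros (0.74) and Hpgd. Among them Mycl, a Myc family factor, was 2-fold higher at 9 h (1.02).

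Oocyte markers moved with this group. All 14 measured oocyte markers were higher in EP2KO at 3 h, beside 6644 of all 12422 probe sets, though for Pou5f1 (0.04) the sign turned under a rescaling. Most of the 14 had low signals: their median level was 6.86, and 2 lay above the array median on both 3 h arrays. Their median difference at 3 h was 0.395. At 0 h it was -0.285, at 9 h -0.12 and at 14 h 0.05. Their summed linear signal at 3 h was 1873 in WT and 2470 in EP2KO, and at 0 h 2553 and 2113. In bulk samples more cells of a type and more RNA per cell cannot be told apart. Zp3, which encodes a protein of the zona pellucida, read 7.60, 7.05, 7.28 and 7.13 in WT, against 7.29, 8.17, 6.89 and 7.23 in EP2KO. Gdf9 and Bmp15, growth factors secreted by the oocyte, stood at 0.40 and 0.46, and the meiotic kinase Mos at 0.49. The part of oocyte RNA in the higher values of Obox2;Obox1, Zp3 and Bcl2l10 was not tested.

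Erythroid markers moved the other way in their globins. Hba-a1 read 9.79, 12.21, 13.39 and 10.91 in WT, against 10.21, 11.00, 10.94 and 11.14 in EP2KO, and Hbb-b2 stood at -0.90 at 3 h and -2.36 at 9 h. The globin deficits were larger at 9 h than at 3 h, and the median over the 9 erythroid markers was 0.01. Their summed signal at 3 h was 8241 in WT and 5524 in EP2KO. Leukocyte, theca and stroma, endothelial, and oviduct and surface epithelium markers had medians of 0.04, 0.01, 0.00 and 0.10. The part of other cells in the 3 h differences was not tested.

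Genes repressed after hCG were examined in the same way. Of the 10 single-symbol probe sets with the largest mean decline, 6 were higher in EP2KO at 3 h, with a median of 0.215. Over all probe sets 6644 of 12422 were higher, so 6 of 10 is near that share. Abcd2, a peroxisomal fatty acid transporter, read 8.80, 6.58, 6.58 and 6.38 in WT, against 8.82, 7.31, 6.77 and 6.49 in EP2KO. By 3 h the drop was thus smaller in EP2KO, and the genotypes were within 0.19 later. Eid1 stood at 0.58, Ldah at 0.35, Eif4e (the cap-binding protein) at 0.34, Akap8 at 0.29 and Tinf2 at 0.14. Ddx6 (-0.48), Wnk1 (-0.37), Map3k1 (-0.10) and Psma4 (-0.06) were lower, though for Psma4 the sign depended on the scaling. Other probe sets of 5 of these genes had the opposite sign. They stood at -0.70 for Eif4e, -0.53 for Tinf2, 0.75 for Map3k1, 0.03 for Wnk1, and -0.16 and -0.20 for Akap8, so that these genes have no settled direction at 3 h.

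A single fit set each 3 h difference against the spread of the differences at 0, 9 and 14 h. This departure at 3 h (limma, 12422 probe sets, 2 residual degrees of freedom) passed an adjusted p of 0.05 in no probe set, and the smallest adjusted p was 0.0784. At an unadjusted p under 0.05 there were 546 lower (4.40%) and 345 higher (2.78%). The smallest p belonged to Ifi202b, an interferon-inducible gene of low signal outside 3 h. It read 4.18, 7.30, 4.40 and 4.17 in WT, against 4.15, 5.59, 4.27 and 4.24 in EP2KO, with a departure of -1.68 ± 0.189 (SE; limma, unadjusted p = 8.63e-06, adjusted p = 0.0784). Sowahc (-1.37), Cotl1 (-1.50), Rgs10 (-1.36) and Ddc (-1.46) followed among the lower ones. Cotl1, an actin-binding protein, read 6.16, 8.65, 7.84 and 5.73 in WT, against 6.57, 7.43, 7.93 and 6.06 in EP2KO. In these 5 genes the genotypes were within 0.41 of each other except at 3 h. C86187 (1.80), Zp3 (1.32), Plat (1.15), the oocyte gene Tcl1b1 (1.08) and Bcl2l10 (1.30) led the higher ones. In an alternative fit with no genotype term, which takes the expected difference as zero, 10 probe sets passed, all lower, and with an intensity trend in the prior 4 passed, 3 of them lower.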

How the data were processed

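Affymetrix MG_U74Av2 arrays were used. Signals were made, per the submitters' processing notes, with RMA (version not given in the sources used here), and the deposited values are log2 signals with 2 decimals, used as deposited. RMA normalizes arrays to a like distribution, so a shift shared by all genes would not show. RNA (100 ng) went through 2 rounds of amplification, per the labels' protocols. Of 12488 probe sets, 66 controls were left out. Symbols come from the platform annotation (10833 probe sets with 1, 396 with several, 1193 with none), and 10817 match RefSeq. Depth does not apply to arrays. No 2 arrays shared over 2.55% of equal values.

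EP2KO minus WT was taken at each time with no filter or added constant. The departure (3 h against the other 3 times) came from lmFit and eBayes (R 4.3.3, limma 3.58.1; prior degrees of freedom 7.13; two-sided, Benjamini-Hochberg adjusted) and was tested on simulated data. Its p-values rest on 1 array per group and may in part measure technical spread. Named were the 15 lowest and 15 highest at 3 h (1 symbol, at least 1 array of 3 h above its median), the 5 smallest p per direction of the departure, the 20 largest mean inductions and 10 largest mean declines, list members (24 lists, 545 of 675 symbols measured) and Ptger2. Plk2 and Chgb (lowered genes with the full promoter element) and Obox2;Obox1 were named after their values were seen. The members and lists were chosen with earlier results of these data known. Alternatives were 3 rescalings, a filter on low values, averaging per gene, other sizes, other reference times and other model terms.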

Additional observations from a re-analysis of the deposited data

Results flagged for a closer look

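The induced probe sets had a median EP2KO minus WT difference of -0.29 at 3 h and 0.22 at 0 h, so the genotype difference had opposite signs at these times. At 9 h the median was 0.20 and at 14 h 0.00. The repressed probe sets showed the opposite pair of signs, 0.19 at 3 h and -0.15 at 0 h, with -0.14 at 9 h and -0.11 at 14 h. The oocyte markers had a median of 0.395 at 3 h and -0.285 at 0 h. With 1 array per genotype and time, none of these 3 differences between times was tested.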

How the results depend on the processing

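The 58 probe sets at least 2-fold apart at 3 h (50 lower in EP2KO, 8 higher) became 40 to 64 under median centring, quantile normalization, equal median absolute deviation and without the lowest 40% of probe sets, and lower outnumbered higher each time. There were 34 with probe sets averaged per gene (30 lower), 291 at 1.5-fold (235 lower), 1 at 4-fold (a higher one) and 130 when the 0 h difference was subtracted (108 lower). Under all 3 rescalings 35 of the 50 and 5 of the 8 kept a 2-fold difference. Of 582 named and listed probe sets 62 changed sign or came to zero under a rescaling, none of them with a deposited difference over 0.14. The departure passed in 0 probe sets under 9 alternatives, with 470 to 1582 at an unadjusted p under 0.05, and a smallest adjusted p of 0.0736 to 0.825, in 10 without a genotype term and in 4 with an intensity trend in the prior. The induced median of -0.29 went to -0.605 for a 4-fold induction and to -0.53 with the 0 h difference subtracted, and lay between -0.2325 and -0.3294 under the others. The repressed median of 0.19 went to 0.1396 with equal median absolute deviation, 0.23 averaged per gene, 0.09 when chosen on 0 to 9 h, 0.16 at a 1.5-fold decline and 0.35 with the 0 h difference subtracted. It was 0.0925 and 0.0478 when the 0 to 9 h choice was combined with quantile normalization and with equal median absolute deviation, which were added after seeing the data. The cause was not tested. No paired analysis was possible because every replicate number is 1 and the labels link no animals. Leaving out a 3 h array removes the comparison, so no such value exists. No added detection filter was used, and low signals such as those of Ptger2 may lie near background.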
